A study of Mus musculus with 4 samples.

Results

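Laminins, nidogens, perlecan and agrin are the glycoproteins that, with collagen IV, make up the basement membrane around each muscle fiber, vessel and nerve. 10 genes were chosen by symbol for this account, *Lama2*, *Lama4*, *Lama5*, *Lamb1*, *Lamb2*, *Lamc1*, *Nid1*, *Nid2*, *Hspg2* and *Agrn*, out of 24054 genes in the deposited table. All 10 were listed, and all 10 were among the 13652 genes that passed the filter on low counts. Bulk RNA-seq was performed on soleus muscles of female *mdx* mice (dystrophin mutants on the C57BL/10ScSn background), with 2 libraries from the mCDC group and 2 from the vehicle group. mCDCs are mouse cardiosphere-derived cells, a cardiac stromal cell type, grown here from the heart of a single wild-type female and used at passage 5. Infusions into the femoral vein began at 8 weeks of age and were repeated each month until 12 months of study, and vehicle mice received the culture medium alone. No wild-type muscle was analysed here, so the values compare treated with untreated dystrophic muscle only.

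A laminin is a trimer of 1 alpha, 1 beta and 1 gamma chain. The alpha chain decides which receptors it binds, and the trimers self-assemble into a sheet on the cell surface. In skeletal muscle, laminin alpha 2 is the main chain of the fiber basement membrane and binds dystroglycan and integrin alpha 7 beta 1; dystroglycan is the receptor that dystrophin anchors inside the fiber. Loss of laminin alpha 2 causes a congenital muscular dystrophy. Laminin alpha 4 and alpha 5 are chains of vessel walls and of the neuromuscular junction, where laminin beta 2 is concentrated. Nidogens link the laminin sheet to collagen IV, perlecan is a large heparan sulfate proteoglycan of the same sheet, and agrin clusters acetylcholine receptors and binds laminin to dystroglycan.

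Library totals ranged from 22481400 to 27187400 expected counts, and the 10 genes together took between 0.0778% and 0.103% of them. The labelled tissue was checked against 8 muscle fiber markers, which summed to between 115565 and 132014 CPM (counts relative to the scaled library total) and none of which was at 0. Vehicle replicate 2 stood apart from the other 3 libraries in endothelial and fibroblast markers. The 8 endothelial markers summed to 313 CPM there and to between 136 and 176 CPM in the other libraries, and the 8 fibroblast markers to 695 CPM against between 380 and 431 CPM. On the first principal component of all genes (44.0% of the variance), mCDC replicate 2 at -33.1 and vehicle replicate 2 at 29.9 lay at the ends. Values without vehicle replicate 2 are given beside the results that it moves most.

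Compared with vehicle muscles, mCDC muscles had lower levels of *Lama4*, *Nid1* and *Agrn*, by 1.57-fold, 1.603-fold and 1.501-fold, and nearly equal levels of *Lamb2*, *Lamc1* and *Hspg2*, the most abundant of the 10 per transcript length. Calls took the thresholds in the study's methods, more than 1.5-fold and p below 0.05 before adjustment. By this rule 3 of the 10 genes were called lower, beside 2.74% of all genes tested, and none was called higher, beside 1.26%. 9 of the 10 had a log2 fold change below 0, as did 51.6% of all genes, and the median was -0.31 over the 10 and -0.0094 over all genes. In 6 of the 10 both mCDC libraries lay below both vehicle libraries, which was the case for 19.4% of all genes, and in none did they lie above, the case for 19.2%. With Benjamini-Hochberg adjustment over all genes, edgeR's quasi-likelihood test gave 0 of the 10 an adjusted p under 0.05, and the smallest was 0.684 for *Agrn*. At an unadjusted p under 0.05 there were 3 of the 10 and 6.94% of all genes. For a single value, an exact permutation test of 2 against 2 libraries cannot go below p = 0.333. No label says whether the libraries of a group came from separate mice, so p-values measure the spread between these libraries. The quasi-likelihood test pools that spread in part over all genes tested.

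An mCDC library had the lowest value for each of the 10, replicate 1 for 4 genes and replicate 2 for 6, while vehicle replicate 2 had the highest value for 8. Only for 3 genes, *Lama2*, *Lama4* and *Agrn*, was the log2 fold change between the groups larger than the distance between the 2 libraries of either group. The shares of all genes with these patterns were not counted, so these counts describe the 10 genes only. Without vehicle replicate 2 none of the 10 was called, the median log2 fold change was -0.21, and 7 of 10 were below 0. Without mCDC replicate 2 none was called either, and the median was -0.43.

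**Figure D1:**
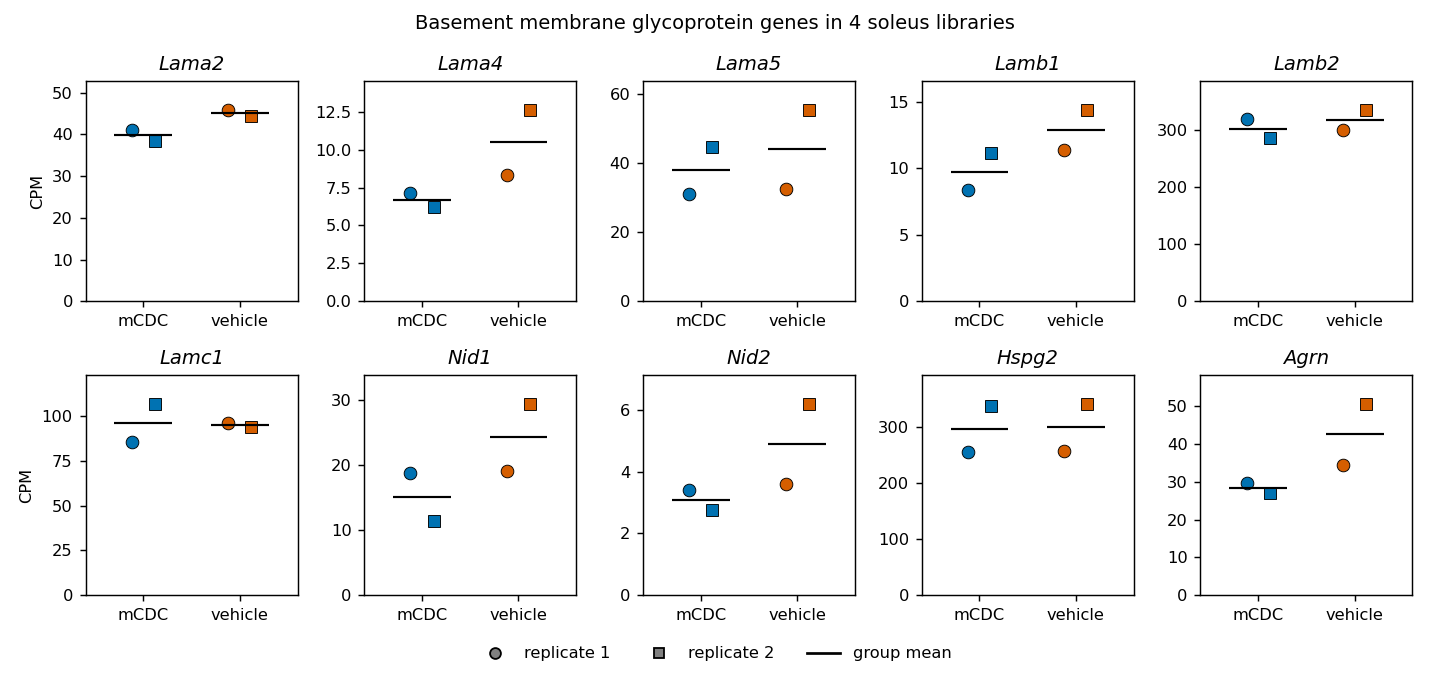
CPM of each of the 10 genes in the 4 libraries, 1 panel per gene with its own axis from 0; circles are replicate 1, squares replicate 2, and lines the group mean. The 2 groups overlap for *Lama5*, *Lamb2*, *Lamc1* and *Hspg2*, and vehicle replicate 2 is the highest point for 8 genes.

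The 10 genes have long transcripts, from 4876 to 14181.5 bases against a median of 2678.5 over the genes tested. Across 13531 genes, the log2 fold change had a Spearman correlation of -0.25 with transcript length and of 0.16 with GC content; genes are not independent replicates, and the correlations describe these 4 libraries. When each library's trend on length and GC content was removed, none of the 10 genes was called, 6 of 10 were below 0, and the median log2 fold change was -0.15 over the 10 and 0.036 over all genes. The part of transcript length in the lower levels of the 10 genes was not tested further.

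**Figure D2:**
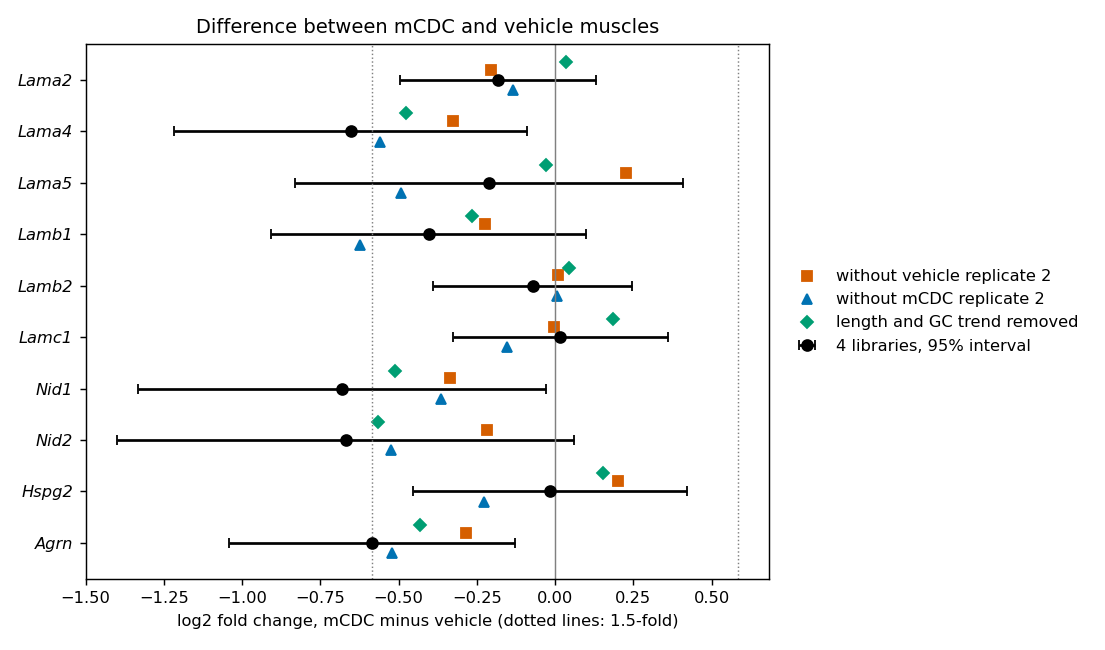
Log2 fold change (mCDC minus vehicle) of each of the 10 genes with its 95% interval from edgeR's quasi-likelihood fit, and the value without vehicle replicate 2, without mCDC replicate 2, and with the length and GC trend removed. The intervals of *Lama4*, *Nid1* and *Agrn* lie below 0 with all 4 libraries, and *Lama5*, *Hspg2* and, barely, *Lamb2* lie above 0 without vehicle replicate 2.

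Among the alpha chains, *Lama2* (chr10:26980036-27619758, minus strand, GRCm38) had 41.2 and 38.5 CPM in mCDC replicates 1 and 2 and 45.9 and 44.5 CPM in vehicle replicates 1 and 2. The main laminin chain of the fiber surface was thus lower in both mCDC libraries, by a small margin, at a log2 fold change of -0.18 (standard error, SE, 0.14, with an adjusted p = 0.778) and a 95% interval from -0.49 to 0.13. Its log2 fold change was -0.21 without vehicle replicate 2 and 0.035 with the length and GC trend removed. An antisense gene, *Gm48084*, covers 3.86% of the exon bases of *Lama2*.

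*Lama4* (chr10:38965515-39110188, plus strand), a chain of vessel basement membranes, had 7.12 and 6.21 CPM after mCDCs and 8.36 and 12.6 CPM after vehicle. The groups did not overlap, and vehicle replicate 2 was 1.51 times vehicle replicate 1. The group means were 6.67 ± 0.64 and 10.5 ± 3.02 CPM (SD, n = 2). The log2 fold change was -0.65 (SE 0.24, unadjusted p = 0.028, adjusted p = 0.705), and -0.33 without vehicle replicate 2, -0.56 without mCDC replicate 2 and -0.48 with the length and GC trend removed; in none of these 3 was it called. The endothelial markers given above also had their highest sum in vehicle replicate 2, and overlapped between the groups. Their part in the *Lama4* value was not tested. In bulk muscle, fewer cells of a type and less RNA per cell cannot be told apart.

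*Lama5* (chr2:180176373-180225859, minus strand), the other vascular alpha chain, had 31.2 and 44.8 CPM after mCDCs and 32.5 and 55.5 CPM after vehicle. Replicate 2 was the higher library in each group, and the groups overlapped. The log2 fold change was -0.21 (SE 0.27, adjusted p = 0.861), with a 95% interval from -0.83 to 0.41, and 0.22 without vehicle replicate 2.

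The level of a chain relative to another can be read only per transcript length, so CPM were divided by the median length of each gene's coding transcripts. Per kilobase, *Lama2* had between 5.56 and 6.62 CPM per kb, *Lama5* between 2.74 and 4.87, and *Lama4* between 1.03 and 2.09. *Lama2* made up 60.2% and 52.7% of the summed alpha chain level in the mCDC libraries and 60.7% and 47.6% after vehicle, and *Lama5* between 26.1% and 37.3%. *Lama4* made up 11.9% and 9.74% after mCDCs and 12.7% and 15.5% after vehicle. With the longest transcript of each gene in place of the median length, the share of *Lama2* was between 39.6% and 52.7%, and in mCDC replicate 2, with 44.6% against 43.8%, and vehicle replicate 2, with 39.6% against 41.7%, it stood close to or below that of *Lama5*. *Lama1*, the chain of embryonic and kidney basement membranes, had at most 1 count in any library, and *Lama3*, an epithelial chain, had 0.11 and 0.23 CPM after mCDCs and 0.42 and 0.91 CPM after vehicle.

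**Figure D3:**
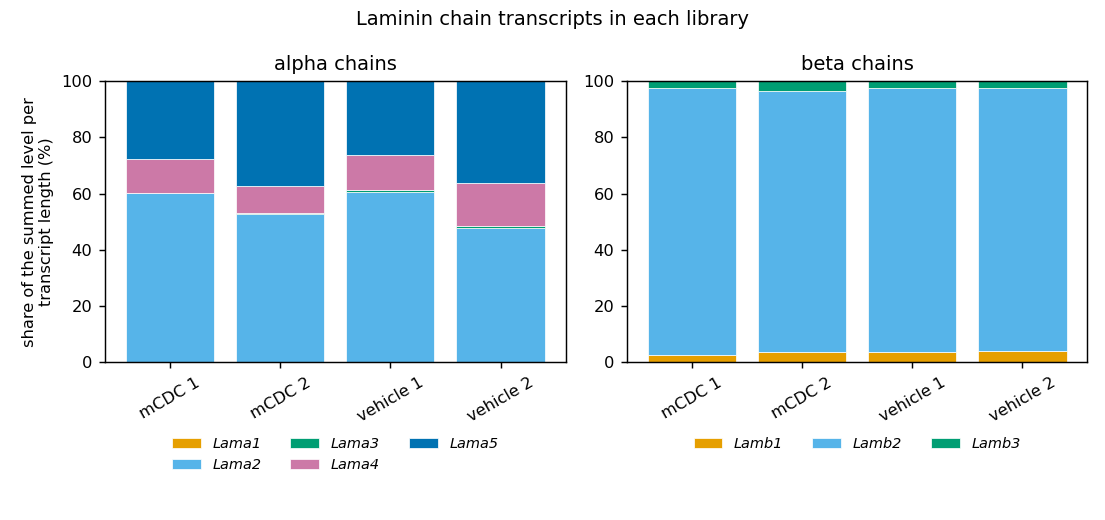
Share of each chain in the summed level of the laminin alpha and beta chains, per transcript length, in each library; each bar adds to 100%. *Lama2* and *Lamb2* are the largest share of their family in all 4 libraries at the median transcript length.

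Of the beta chains, *Lamb2* (chr9:108479736-108490530, plus strand) had 320 and 287 CPM after mCDCs and 301 and 336 CPM after vehicle. The groups overlapped, with a log2 fold change of -0.07 (SE 0.14, adjusted p = 0.915) and a 95% interval from -0.39 to 0.25. It was 0.0080 without vehicle replicate 2. *Lamb1* (chr12:31265234-31329644, plus strand), the beta chain of laminin-211 and of vessels, was far less abundant, with 8.37 and 11.1 CPM after mCDCs and 11.4 and 14.4 CPM after vehicle. The mCDC libraries lay below the vehicle libraries, with 11.15 CPM in the higher mCDC library and 11.37 CPM in the lower vehicle library, and the log2 fold change was -0.40 (SE 0.22, adjusted p = 0.735). It was -0.22 without vehicle replicate 2, -0.21 without mCDC replicate 1, -0.62 without mCDC replicate 2 and -0.27 with the length and GC trend removed, and was called in none of these 4. Per kilobase, *Lamb2* was 38.5 and 25.9 times *Lamb1* after mCDCs and 26.7 and 23.5 times after vehicle, and made up between 92.9% and 94.9% of the summed beta chain level.

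*Lamc1* (chr1:153218922-153332786, minus strand), the gamma chain shared by the laminins of muscle fibers, vessels and nerves, had 85.4 and 107 CPM after mCDCs and 96.5 and 93.8 CPM after vehicle. The vehicle libraries lay between the mCDC libraries, and the log2 fold change was 0.02 (SE 0.15, adjusted p = 0.987), with a 95% interval from -0.33 to 0.36. It was -0.0081 with counts thinned to the smallest library and -0.015 with upper quartile scaling.

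Ratios within a library do not depend on how libraries are scaled to each other, and 6 were compared. The *Lama4* to *Lama2* ratio per kilobase was 0.198 and 0.185 after mCDCs and 0.209 and 0.325 after vehicle. It was the single ratio whose groups did not overlap, with a log2 difference of -0.44 (exact permutation test, two-sided, p = 0.333, the smallest the design allows; adjusted over 6 ratios, p = 1). Without vehicle replicate 2 the difference was -0.12, and it was larger in size without vehicle replicate 1. The *Lama5* to *Lama2* ratio, the *Lamb2* to *Lamb1* ratio and the *Nid2* to *Nid1* ratio overlapped between the groups, with log2 differences of 5.3e-05, 0.33 and 0.07. The *Lamb2* to *Lamb1* difference came to 0.050 when mCDC replicate 1 was left out and to 0.62 when mCDC replicate 2 was. The 3 alpha chains summed to 0.880 and 0.749 times *Lamc1* after mCDCs and 0.858 and 1.09 times after vehicle. The 2 beta chains summed to between 3.77 and 5.197 times *Lamc1*, so the transcripts of the beta chains were in excess over those of *Lamc1* in each library, mostly *Lamb2*. These ratios to *Lamc1* depend on the length used, which for *Lamc1* was the median of 7622 bases, against 4821 coding bases.

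*Nid1* (chr13:13437551-13512269, plus strand), the more abundant nidogen, had 18.8 and 11.4 CPM after mCDCs and 19.1 and 29.4 CPM after vehicle. mCDC replicate 1 and vehicle replicate 1 were nearly equal, and the difference lay in the other pair of libraries. The group means were 15.1 ± 5.27 and 24.3 ± 7.32 CPM (SD, n = 2). The log2 fold change was -0.68 (SE 0.28, unadjusted p = 0.043, adjusted p = 0.713). It was -0.34 without vehicle replicate 2, -0.37 without mCDC replicate 2 and -0.51 with the length and GC trend removed, and was not called in any of the 3, nor without the filter on low counts or with the replicate block. Without mCDC replicate 1 it was -1.09, and without vehicle replicate 1 it was -0.96, called in both. *Nid2* (chr14:19751265-19811787, plus strand) had 3.41 and 2.75 CPM after mCDCs and 3.60 and 6.21 CPM after vehicle, with a log2 fold change of -0.67 (SE 0.32, unadjusted p = 0.068, adjusted p = 0.724). It was past 1.5-fold but not past the p threshold. It was -0.22 without vehicle replicate 2, and -1.01 and called lower without vehicle replicate 1.

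*Nid2* was the single gene of the 10 with expected counts that were not whole, at 90.15 and 60.15 after mCDCs and 94.24 and 170.67 after vehicle, which RSEM gives where a read maps to more than 1 gene. *Rtraf*, a gene on the other strand, covers 8.45% of the exon bases of *Nid2*, and was listed under its older symbol at between 102 and 108 CPM. Whether strand was used in counting is not given in the sources used here, so reads of *Nid2* and *Rtraf* in this stretch cannot be told apart and the *Nid2* values are uncertain. *Gm48682* covers 2.06% of the exon bases of *Nid1* on the other strand in the same way. Over the 10 genes, between 0% and 7.87% of the 31-base words of their transcripts occurred in another gene, the highest share being that of *Nid2*.

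*Hspg2* (chr4:137468769-137570630, plus strand), which encodes perlecan, had 256.4 and 337 CPM after mCDCs and 258 and 342 CPM after vehicle. Replicate 2 was the higher library in each group, and the spread within a group was larger than the difference between the groups. The log2 fold change was -0.02 (SE 0.19, adjusted p = 0.991), with a 95% interval from -0.45 to 0.42. It was 0.15 with the length and GC trend removed and 0.20 without vehicle replicate 2.

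*Agrn* (chr4:156165290-156197488, minus strand) had 29.7 and 27.1 CPM after mCDCs and 34.5 and 50.7 CPM after vehicle. Both mCDC libraries lay below both vehicle libraries, and the vehicle libraries differed from each other by 1.47-fold. The log2 fold change of -0.586 (SE 0.20, unadjusted p = 0.018, adjusted p = 0.684) stood at the 1.5-fold threshold of 0.585. The call was lost with DESeq2, with RLE size factors, with thinned counts and with the replicate block, and the log2 fold change was -0.28 without vehicle replicate 2, -0.52 without mCDC replicate 2 and -0.43 with the length and GC trend removed. The counts are per gene and do not separate the neural splice forms of agrin, which cluster acetylcholine receptors, from those of other cells.

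Promoter sequences from RefSeq (GRCm38.p6, from 250 bases before to 50 after the start) were listed for 7 of the 10 genes. Those of *Agrn* and *Nid1*, both called lower, are shown with that of *Lamb2*, which had the highest level of the 10 per transcript length, to show how differently the promoters of this family are built. They are given 5′ to 3′ on the strand of the gene, with each GC box (GGGCGG, or CCGCCC on the other strand) in capitals.
Agrn (chr4:156197439-156197738, minus strand): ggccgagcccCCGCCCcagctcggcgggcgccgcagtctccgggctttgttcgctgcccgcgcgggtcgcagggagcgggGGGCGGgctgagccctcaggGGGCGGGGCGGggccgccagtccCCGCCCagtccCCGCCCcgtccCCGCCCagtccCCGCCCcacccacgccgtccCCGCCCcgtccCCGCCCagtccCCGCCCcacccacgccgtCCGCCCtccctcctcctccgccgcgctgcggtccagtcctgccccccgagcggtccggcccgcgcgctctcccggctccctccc
Nid1 (chr13:13437352-13437651, plus strand): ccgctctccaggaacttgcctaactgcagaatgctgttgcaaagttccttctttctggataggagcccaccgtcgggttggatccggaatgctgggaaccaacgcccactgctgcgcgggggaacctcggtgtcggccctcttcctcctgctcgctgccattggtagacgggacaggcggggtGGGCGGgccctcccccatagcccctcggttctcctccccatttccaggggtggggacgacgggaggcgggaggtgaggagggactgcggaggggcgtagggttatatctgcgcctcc
Lamb2 (chr9:108479612-108479911, plus strand): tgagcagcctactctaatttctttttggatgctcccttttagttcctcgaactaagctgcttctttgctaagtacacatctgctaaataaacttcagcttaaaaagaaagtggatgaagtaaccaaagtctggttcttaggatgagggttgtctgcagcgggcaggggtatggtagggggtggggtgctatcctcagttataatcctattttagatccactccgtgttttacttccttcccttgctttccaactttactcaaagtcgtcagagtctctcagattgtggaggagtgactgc

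The *Agrn* window shown is that of the first of 2 listed starts. It holds 12 GC boxes, a pair of which overlap, at a GC content of 83.3%, while that of the other start holds 2 at 61.3%. The *Nid1* window holds 1 at 64.7% and the *Lamb2* window holds none at 44.0%. GC boxes occurred in 35.7% of 32851 promoter windows of this length, whose median GC content was 52.7%. Those of *Lama5*, *Hspg2*, *Lamb1* and *Lama2* hold 4, 5, 2 and 1. The TATA box (TATAAA on either strand), found in 13.6% of all windows, was in none of the first listed windows of the 7 genes, and no GC box overlapped a TATA box or a CCAAT box (CCAAT on either strand). These are matches of letters, and the data hold no measurement of binding at these sites.

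The rest of the basement membrane was followed with 7 lists of 69 genes, of which 62 were tested. 8 of the 62 were called lower and 0 higher, beside 2.74% and 1.26% of all genes, and none had an adjusted p under 0.05 with edgeR's quasi-likelihood test, the smallest being 0.619. Of the 10 network collagens tested, all had a log2 fold change below 0, beside 51.6% of all genes, with a median of -0.40, and 3 were called lower. *Col4a1* and *Col4a2*, the main collagen IV chains, were at -0.12 and -0.13 and overlapped between the groups, as did *Col18a1* at -0.08. Without vehicle replicate 2 the collagen IV chains were at 0.26 and 0.20, and without vehicle replicate 1 at -0.42 and -0.41. *Col4a5*, a collagen IV chain whose gene is mutated in X-linked Alport syndrome, had 14.5 and 10.004 CPM after mCDCs and 20.4 and 19.8 CPM after vehicle, which gave -0.71 on the log2 scale (SE 0.21, adjusted p = 0.629). Its value was -0.74, still past both thresholds, without vehicle replicate 2, while the call was lost at -0.47 without mCDC replicate 2 and at -0.55 once the length and GC trend was taken out. *Col6a1* and *Col6a2*, chains of the collagen that ties basement membrane to the surrounding matrix, were called lower at -0.62 and -0.59, and were not called without vehicle replicate 2, at -0.19 and -0.18, or without mCDC replicate 2, at -0.48 and -0.49, or once the trend on length and GC was taken out, at -0.55 and -0.51. The *Col6a2* call was also lost with DESeq2, RLE size factors and thinned counts. Without vehicle replicate 2 the median of the collagens was -0.02, with 6 of 11 below 0, and without mCDC replicate 2 it was -0.34, over 10. It was -0.61, with 11 of 11 below 0, without vehicle replicate 1. Once the trend on length and GC was taken out, the median was -0.27, 7 of 10 were below 0 and none was called.

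Among 15 tested accessory proteins the median was -0.32, with 2 called lower. The median was -0.17 without vehicle replicate 2 and -0.45 without vehicle replicate 1. *Papln*, a papilin of the basement membrane, was at -0.97 and was still called at -1.03 without vehicle replicate 2 but not, at -0.83, without mCDC replicate 1, nor with DESeq2. *Smoc2*, a calcium-binding matrix protein, was at -0.69, and was not called without vehicle replicate 2, at -0.28, or without mCDC replicate 2, at -0.57. Of 8 tested proteases *Mmp2*, a gelatinase that cuts collagen IV, was called lower, with 23.3 and 23.9 CPM after mCDCs and 31.1 and 43.3 CPM after vehicle, a log2 fold change of -0.66. It was -0.40, not called, without vehicle replicate 2. Of the 3 tested genes on the list of other laminin chains and netrin-4, *Lama3* was called lower, and the median was -0.33, or -0.089 without vehicle replicate 1 and -0.67 without mCDC replicate 2. *Lama3* rested on 3 and 5 counts after mCDCs and 11 and 25 counts after vehicle, and was not called without mCDC replicate 1, at -1.53, without vehicle replicate 2, at -1.31, or with DESeq2.

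The 7 laminin receptor genes had a median of 0.12, with 5 above 0 and 1, *Itga6*, called lower at -0.66. *Itga6*, the integrin alpha 6 subunit, was not called without vehicle replicate 2, at -0.22, without mCDC replicate 2, at -0.59, or once the trend on length and GC was taken out, at -0.53. The median of the receptors ranged from 0.051 to 0.31 with a vehicle library left out. *Itga7*, the laminin receptor integrin of muscle fibers, had 234 and 319 CPM after mCDCs and 196 and 218 CPM after vehicle, or 0.42 on the log2 scale (SE 0.17, unadjusted p = 0.041, adjusted p = 0.713), and short of 1.5-fold. It was 0.18 without mCDC replicate 2, and 0.62 and called higher without mCDC replicate 1. *Bcam*, the Lutheran glycoprotein that binds laminin alpha 5, was at 0.39 (SE 0.13, adjusted p = 0.673), with both mCDC libraries above both vehicle libraries. *Dag1* and *Itgb1* were at 0.11 and 0.12 and overlapped, and *Dag1* was at -0.18 without vehicle replicate 2. None of the 11 genes of dystroglycan glycosylation was called, at a median of 0.021 that ranged from -0.068 to 0.11 with a library left out. None of the 8 genes of the agrin pathway was called either, at a median of 0.14, or 0.052 without mCDC replicate 1, with *Lrp4*, the agrin receptor, at -0.14 and *Musk*, its kinase, at 0.23.

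**Figure D4:**
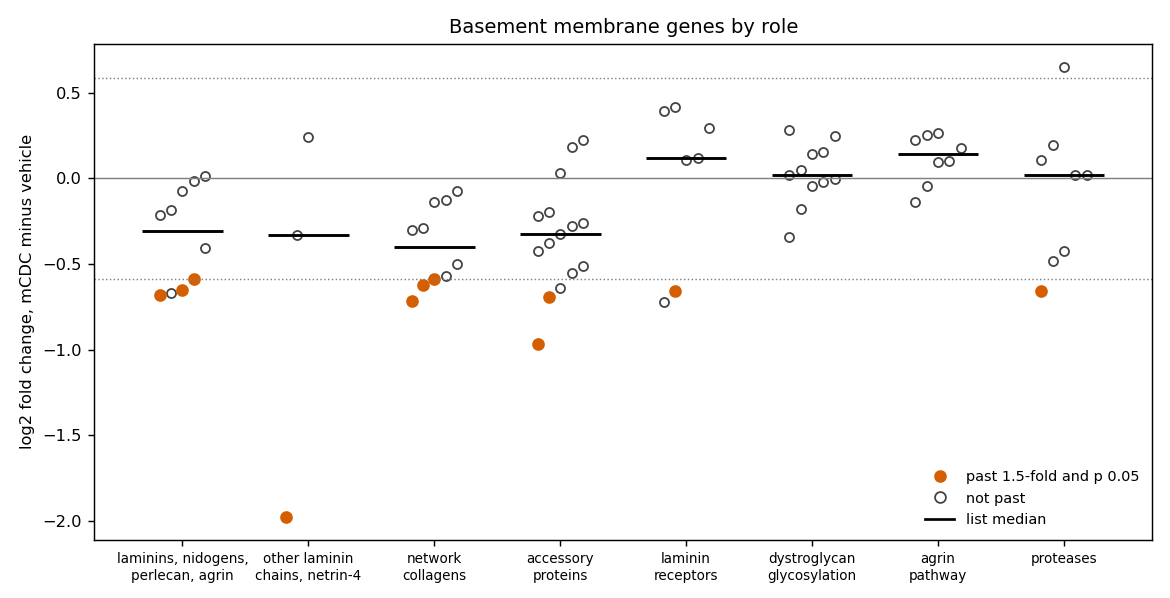
Log2 fold change (mCDC minus vehicle) of each tested gene on 8 lists by role, with filled points past 1.5-fold and an unadjusted p of 0.05 and bars at the list medians. The median lies at -0.31 for the 10 glycoprotein genes and at -0.40 for the network collagens, and at 0.12 for the laminin receptors.

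Cell type markers were read beside these values. In summed CPM, endothelial markers (8 of 8 tested, none called) were at 176 and 146 after mCDCs and 136 and 313 after vehicle, and fibroblast markers (8 of 8, with *Pdgfra*, *Lum* and *Col1a2* called lower) at 431 and 380 against 414 and 695. Their median log2 fold changes were -0.53 and -0.50, and 0.11 and -0.12 without vehicle replicate 2. They were -1.05 and -0.78 without vehicle replicate 1. Markers of pericytes and smooth muscle were at 294 and 330 against 234 and 310, those of Schwann cells at 62.5 and 64.3 against 59.5 and 81.0, and those of macrophages at 29.1 and 35.7 against 27.2 and 45.2. Adipocyte markers were at 124 and 124 against 142 and 204, a sum that was mostly *Fabp4*, at 199.9 CPM in vehicle replicate 2. The other 4, *Adipoq*, *Plin1*, *Cidec* and *Lep*, were highest in vehicle replicate 1 and lowest in vehicle replicate 2, with *Plin1* at 5.11 and 0.73 CPM. The median log2 fold change of the adipocyte markers was -0.28, and was 1.147 without vehicle replicate 1 and -0.86 without vehicle replicate 2. Tendon markers were at 155 and 208 against 207 and 228, a sum that was mostly *Thbs4*, while *Tnmd*, *Mkx* and *Fmod* were highest in vehicle replicate 1. Satellite cell markers were at 9.88 and 8.41 against 7.75 and 8.51. The other lists had 8 tested markers of pericytes and smooth muscle, 8 of muscle fibers, 6 of Schwann cells and 6 of macrophages. They also had 5 tested markers each of adipocytes and tendon, and 4 of satellite cells. Of these, *Cspg4*, *Cd68*, *Scx* and *Pax7* were called higher and *Rgs5*, *Csf1r*, *Tnmd* and *Fmod* lower. Over all genes tested, 1.26% were called higher and 2.74% lower. *Cd68* overlapped between the groups, with 4.13 and 15.4 CPM after mCDCs and 2.71 and 4.15 CPM after vehicle, and the other 5 macrophage markers were below 0. The median of the macrophage list was -0.53, and 0.070 without vehicle replicate 2. No marker on these lists was at 0 in all libraries. Vehicle replicate 2 had the highest sum for endothelial, fibroblast, Schwann cell, macrophage, adipocyte and tendon markers, and the highest value for 8 of the 10 glycoprotein genes. In that library *Lyz2* made up 22.9 of the 45.2 CPM of the macrophage markers. The part of these cells in the values was not tested.

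**Figure D5:**
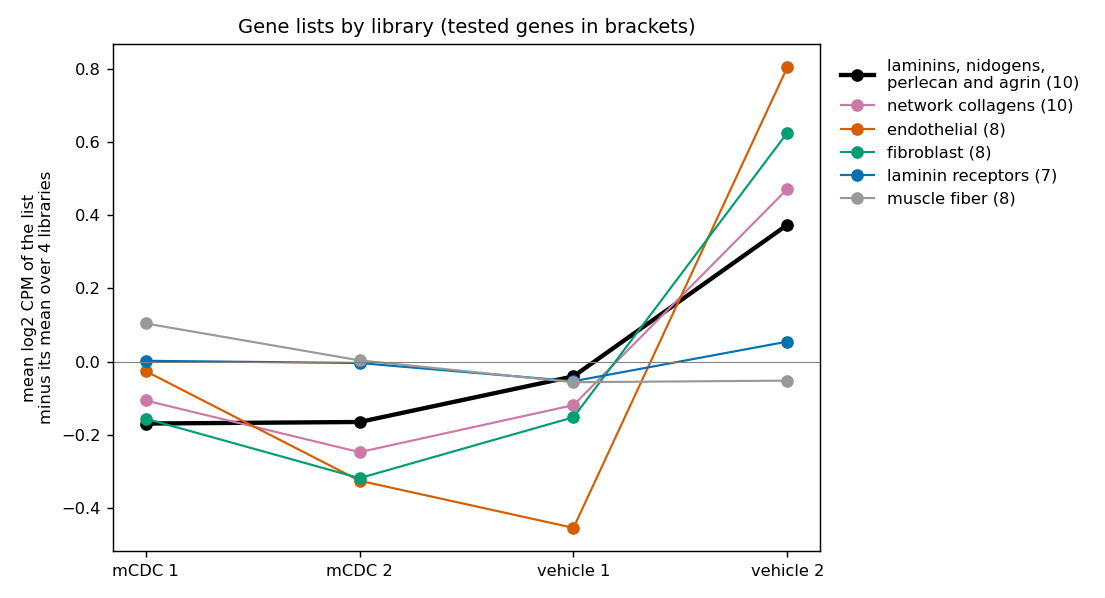
Mean log2 CPM of 6 gene lists in each library, minus the list's mean over the 4 libraries; lines only join the points of a list. In vehicle replicate 2 the glycoprotein genes lie at 0.37, the network collagens at 0.47, the fibroblast markers at 0.63 and the endothelial markers at 0.80, and the laminin receptors at 0.055, a mean over genes that differ in direction (*Itga6* and *Itgb4* are highest and *Dag1* and *Bcam* lowest in that library).

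The mean profile of the 10 genes over the 4 libraries was -0.17, -0.16, -0.04 and 0.37 in log2 units around its own mean, for mCDC replicates 1 and 2 and vehicle replicates 1 and 2. The 5 other tested genes closest to it by root mean square distance were *Hoxa7*, *Gm17644*, *Dsel*, *Plk1* and *Plekha6*, at distances from 0.011 to 0.021. With 4 libraries and 13652 genes, such a list describes closeness in these libraries only.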

How the data were processed

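Total RNA from 4 soleus muscles was sequenced as single-end reads. Per the labels, libraries were made with a stranded mRNA kit, while the study's methods name another kit, and whether counting used strand is not given in the sources used here. The authors mapped reads to a UCSC transcript set with Bowtie2 2.1.0 and deposited expected counts per gene from RSEM 1.2.15, without scaling; versions and the build mm10 come from the submitters' processing notes. Columns were paired with samples by name. No batch is named in the labels.

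After rounding to whole numbers, the counts went through filterByExpr, TMM scaling and the quasi-likelihood F-test of edgeR (version 4.0.16, R version 4.3.3, legacy = FALSE) with no covariate. The SE of a log2 fold change was its size over the root of its F statistic. CPM used expected counts over scaled library sizes, and log2 CPM a prior count of 2. Of the symbols, 22750 matched GENCODE M21 (GRCm38) by name, 916 by an older name and 388 did not; lengths and GC content came from its basic transcripts. The trend on length and GC content was fitted with splines in each library. Named genes were the 10 members, 8 fixed partner genes and each called partner gene, while 2 genes first listed are not reported here and were left out of the lists, though not of the fit; *Bcam*, *Itgb4* and the cell markers were named after their values were seen. The members and lists were chosen with earlier results of these data known. Alternatives were DESeq2 1.42.0 and the settings of the closing section. The test was first checked on 20 simulated sets of 13652 genes. In these, a median of 328 genes simulated without a change were also called at the unadjusted threshold. Totals were 22481400 to 27187400 counts.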

Additional observations from a re-analysis of the deposited data

How the results depend on the processing

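15 alternatives were run. The 3 calls among the 10 genes fell to 0 with the length and GC trend removed, to 1 with the replicate number as a block, *Lama4* at -0.63, and to 0 with the replicate block and the trend removed together; with each library left out in turn they ranged from 0 to 4, and the median log2 fold change from -0.55 to -0.21. Over all other alternatives 2 or 3 of the 10 were called, all lower. The labels give same-numbered libraries nothing in common but the number, and whether they shared anything else is not known. The correlation of their deviations from the group means was -0.039. The block result therefore cannot be read as one on paired animals. The 8 calls on the partner lists became 5 with the replicate block, 5 with the length and GC trend removed and 5 with both, and ranged from 3 to 18 with a library left out. Calls over all genes, 172 higher and 374 lower, ranged from 112 to 397 and from 236 to 834. The number with an adjusted p under 0.05 was 0 in the test reported, 48 with DESeq2, 58 with edgeR's exact test and up to 91 with a library left out (without mCDC replicate 1), none of them among the 10 genes. The 10 genes had between 60.15 and 9403 counts in a library.

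Signs changed for the following genes and ratios. *Lamc1* was at -0.015 with upper quartile scaling and -0.0081 with thinned counts. With the length and GC trend removed, and then with the replicate block as well, *Lama2* was at 0.035 and 0.035, *Lamb2* at 0.045 and 0.043, *Hspg2* at 0.15 and 0.15, *Col4a1* at 0.027 and 0.054, *Col4a2* at 0.013 and 0.030, *Col18a1* at 0.022 and 0.018 and *Lrp4* at 0.026 and 0.025. With a library left out, values that crossed 0 ranged from -0.54 to 0.22 for *Lama5*, -0.15 to 0.0080 for *Lamb2*, -0.15 to 0.17 for *Lamc1*, -0.23 to 0.20 for *Hspg2*, -0.42 to 0.26 for *Col4a1*, -0.41 to 0.20 for *Col4a2*, -0.16 to 0.0020 for *Col18a1*, -0.18 to 0.47 for *Dag1*, -0.014 to 0.24 for *Itgb1* and -0.13 to 0.52 for *Musk*. Those of the log2 ratios ranged from -0.41 to 0.41 for *Lama5* to *Lama2*, -0.14 to 0.28 for *Nid2* to *Nid1* and -0.32 to 0.14 for the beta chains to *Lamc1*. The cause of these changes was not tested.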
